A study of Mus musculus with 8 samples.

Results

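Rest and 9 other transcription regulators that set or mark neuronal fate were followed across mouse brain regions, brain cell types, embryonic fibroblasts and a library labelled as embryonic stem cells. They were chosen by gene symbol as a named list, 10 of the 29713 genes in the tables, and all 10 were present. Rest, Hes1, Hes5 and Id3 are repressors or antagonists of neuronal genes, 4 in all. Neurod1, Neurod2, Myt1, Myt1l, Pou3f2 and Pou3f3, the other 6, are neuronal fate factors and are called activators here for short, although Myt1 and Myt1l can also repress.

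REST is a zinc finger protein that binds a motif near many neuronal genes and recruits corepressors and histone-modifying enzymes, which keeps these genes silent outside neurons. Notch receptors act through the DNA-binding protein RBPJ to switch on Hes genes, whose products hold progenitors and astrocytes out of neuronal fate, and Id proteins trap the E proteins that proneural basic helix-loop-helix (bHLH) factors need as partners. NeuroD, Myt and class III POU factors work on the other side, in neuronal precursors and neurons, and Pou3f2 (Brn2) with Myt1l belongs to the combinations used to turn fibroblasts into neurons.

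Each of 8 groups held 1 library of RNA, so differences could not be set against replicates and p-values are left out. Cerebellum, cortex and hippocampus, and the neuron and glia libraries made from brain, came from strain C57. ICR MEF and OG2 MEF were mouse embryonic fibroblasts of the strains ICR and OG2, taken at embryonic day 13.5, and the last library was labelled R1 ESC, a stem cell line of 129X1 x 129S1 origin taken from the inner cell mass. No treatment is given for any group, and the sources used here do not state the age, sex or number of the animals, or how neurons and glia were isolated or cultured.

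Levels are TPM (transcript abundance scaled for transcript length to a fixed library total), and bracketed intervals are exact 95% intervals that cover counting error only. In a comparison a gene was called when it reached 10 TPM or more throughout the higher group and, after 1 TPM was added to every value, the 2 groups stood at least 4-fold apart at their closest libraries. Folds are ratios of the TPM of those closest libraries. Where the lower library had 0 counts it was set to 3 counts, and the fold is then written as at least that size.

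Libraries held 2147004 (R1 ESC label) to 5864673 (glia) expected counts. The share of TPM in ribosomal protein and haemoglobin genes was 48.9% for the library labelled R1 ESC, 17.6% to 20.8% for neuron and both MEFs, and 4.77% to 7.33% for the brain regions and glia. A high share leaves less of the TPM total for all other genes. The glia library had 6 of 7 astrocyte and 6 of 6 microglia markers at 10 TPM or more. It also had 5 of 5 genes of dividing cells there, with Olig1 and Olig2 at 631 and 102 TPM but Mog and Mobp, markers of mature oligodendrocytes, at 0. Of the 7 fibroblast markers 5 were also at 10 TPM or more in glia, with Fn1 at 1018 and Col1a2 at 111 TPM but Dcn and Lum at 2.92 and 0.94. The neuron library had 7 of 7 neuron markers at 10 TPM or more, but also 3 of 7 astrocyte and 2 of 6 microglia markers. Both MEFs had 7 of 7 fibroblast markers there. Of the 7 neuron markers, 3 were also at 10 TPM or more in glia and 2 in each MEF. The library labelled R1 ESC matched its label in part: Pou5f1 and Nanog stood at 20.2 and 10.3 TPM there, against 1.97 or less elsewhere, but 4 other pluripotency markers, Zfp42, Esrrb, Utf1 and Dppa5a, were at 0, and the keratin Krt14 stood at 142 TPM.

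Promoter sequence is shown for Hes5, the direct Notch target whose ratio to Hes1 differed most between cortex and glia among the brain libraries, and for Neurod1 and Neurod2, the related bHLH genes whose order reversed between cerebellum and forebrain. The bases are those just upstream of each GENCODE gene, 5′ to 3′ on the gene's strand, from the RefSeq table of build GRCm38.p6: chr4:154960673-154960922 on the plus strand for Hes5, chr2:79456752-79456886 on the minus strand for Neurod1 and chr11:98329649-98329895 on the minus strand for Neurod2. Capitals mark the RBPJ core TGGGAA, on either strand, in Hes5, and the E-box CANNTG, the bHLH motif, in the NeuroD genes.
Hes5: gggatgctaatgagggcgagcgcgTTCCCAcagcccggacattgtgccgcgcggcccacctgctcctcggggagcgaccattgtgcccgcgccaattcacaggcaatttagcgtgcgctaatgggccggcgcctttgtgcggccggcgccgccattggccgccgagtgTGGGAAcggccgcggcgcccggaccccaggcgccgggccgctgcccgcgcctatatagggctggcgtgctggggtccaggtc
Neurod1: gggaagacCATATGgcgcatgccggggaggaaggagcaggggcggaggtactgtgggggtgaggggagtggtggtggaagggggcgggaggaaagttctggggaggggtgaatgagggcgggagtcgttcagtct
Neurod2: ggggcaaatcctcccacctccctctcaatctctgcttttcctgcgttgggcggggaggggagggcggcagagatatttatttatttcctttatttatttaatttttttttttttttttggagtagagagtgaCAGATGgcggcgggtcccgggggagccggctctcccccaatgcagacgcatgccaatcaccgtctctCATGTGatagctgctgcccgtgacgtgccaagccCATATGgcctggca
The Hes5 stretch holds 2 RBPJ cores, and TGGGAA is found on either strand in 25.6% of the 32851 promoter windows in the table (each running from 250 bases before to 50 after a RefSeq start). Neurod1 shows 1 E-box and Neurod2 3, and the general letters CANNTG are in 72.3% of windows. The form CATATG, which was singled out after the windows were read and is one case of CANNTG, is present in both NeuroD stretches and in 3.91% of windows. Of the other members, Myt1l carried CATATG in 1 of its 5 windows. Windows were in the table for 8 of the 10 members, and Rest and Hes1 are named only. The left and right parts of the REST motif that were searched, TTCAGCACC and GGACAGCG on both strands, are in 0.371% and 1.26% of windows; among the members the second occurred once, in Id3, and the first in none.

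Rest (chr5:77265491-77286432, plus strand, GRCm38) was high in glia and fibroblasts and nearly absent from the neuron library. It stood at 17.3 TPM in glia (331 counts), 13.7 in ICR MEF and 12.4 in OG2 MEF, and at 2.25, 2.65 and 2.61 in cerebellum, cortex and hippocampus. The neuron library had 0.19 TPM from 4 counts (interval 0.0521 to 0.490) and the library labelled R1 ESC 0.36 TPM from 7 counts. Glia and the MEFs were highest, the regions lay between and neuron was lowest; the 2 MEFs, the 3 regions, and the neuron and R1 ESC label pair were each not separated by counting error. The gap between cerebellum and the library labelled R1 ESC, 6.25-fold on TPM, narrowed to 1.09-fold with TMM factors of the TPM (edgeR's trimmed mean normalization, computed on the TPM). Rest was 90.9-fold lower in neuron than in glia (34.9 to 333), and it was also lower in neuron than in each region, by 11.8-fold to 13.9-fold. Under 4 other scalings (TMM factors of the counts or of the TPM, CPM, which are counts scaled to the library total alone, and TPM without ribosomal protein and haemoglobin genes) the smallest ratios were 51.0 for glia over neuron and 5.89 to 7.39 for the regions over neuron. The small lead of glia over ICR MEF, 1.26-fold (1.07 to 1.49), turned to a ratio of 0.895 with TMM factors of the TPM. In these bulk libraries, fewer cells that express a gene and less of its RNA per cell cannot be told apart.

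Hes1 (chr16:30064384-30067796, plus strand), the Hes repressor used by many cell types, shared the low neuron value but not the low value of the library labelled R1 ESC. ICR MEF, glia, OG2 MEF and the library labelled R1 ESC had 52.1, 48.0, 47.4 and 41.9 TPM, cortex and hippocampus 15.6 and 12.7, cerebellum 6.41 and neuron 2.48 (10 counts). The first 4 libraries were not separated by counting error on TPM, and their order depended on the scale: the library labelled R1 ESC was the highest under each of the 4 other scalings. Hes1 was 19.3-fold lower in neuron than in glia (10.3 to 41.1), and 10.8-fold at the smallest under the other scalings.

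Hes5 (chr4:154960923-154962371, plus strand), the other main Notch effector of the nervous system, followed a different course and was seen almost only in brain. It stood at 33.0 TPM in cortex (71.5 counts), 18.3 in hippocampus (31.8 counts) and 2.64 in cerebellum (7 counts). Glia had 4.62 TPM from 5 counts and neuron 1.75 from 6, the library labelled R1 ESC had 1 count, and both MEFs had 0 counts, which allows up to 1.68 TPM in ICR MEF and 1.45 in OG2 MEF at 3 counts. Cortex and hippocampus were above every other library, while glia, cerebellum and neuron were not separated. In glia the count rested on a transcript length of 577 bases against 1273 in neuron, and in CPM the 2 changed order, at 0.853 and 1.51. An exon of Hes5 overlaps Gm20421 on the other strand, and since the sources used here do not state whether counting used strand, reads of the pair cannot be told apart.

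Within a library the ratio of Hes5 to Hes1 was 2.11 in cortex (1.44 to 3.17) and 1.44 in hippocampus (0.838 to 2.53). It was 0.412 in cerebellum (0.146 to 1.04), 0.706 in neuron (0.211 to 2.14) and 0.0963 in glia (0.0308 to 0.229). Only in cortex among these did Hes5 exceed Hes1 beyond counting error, and in glia it lay below it beyond that error. Such ratios do not change with a factor applied to a whole library, but they do in CPM, which leaves out transcript length. In CPM, Hes5 and Hes1 stood at 13.3 and 8.19 in cortex and at 0.853 and 28.1 in glia.

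Id3 (chr4:136143497-136145755, plus strand), a helix-loop-helix protein without a DNA-binding domain, had the highest single level of all 10 members. It reached 738 TPM in glia, 233 in OG2 MEF and 192 in ICR MEF. Hippocampus, cortex and cerebellum had 59.2, 51.7 and 26.5 TPM, the library labelled R1 ESC 17.0 and neuron 9.29 (32 counts). Its order resembled that of Rest, with glia and fibroblasts on top and neuron lowest, and it was 79.4-fold lower in neuron than in glia (56.1 to 116), and 44.5-fold at the smallest under the other scalings. The place of the library labelled R1 ESC under cerebellum reversed under all 4 other scalings.

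Neurod1 (chr2:79452521-79456751, minus strand), a bHLH factor of granule neuron differentiation, was a cerebellar gene here. Cerebellum had 372 TPM (2288 counts), hippocampus 27.9, cortex 13.7 and neuron 6.05 (48 counts). ICR MEF and OG2 MEF had 1 count each, and glia and the library labelled R1 ESC 0 counts. Each step down from cerebellum to neuron exceeded counting error. Exons of Neurod1 overlap Cerkl on the same strand and Gm26755 on the other, and its count was whole in all libraries but cerebellum.

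Neurod2 (chr11:98325415-98329648, minus strand), a related factor of excitatory neurons, was more even. It stood at 113 TPM in cerebellum, 110 in hippocampus, 44.5 in cortex and 28.2 in neuron, with 1 count in ICR MEF and 0 in glia, OG2 MEF and the library labelled R1 ESC. Cerebellum and hippocampus were not separated, and cortex was 2.47-fold below hippocampus (2.14 to 2.86). Cortex stood above neuron by 1.58-fold (1.33 to 1.87), an order that reversed with TMM factors of the TPM and in CPM.

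The ratio of Neurod1 to Neurod2 within a library showed the regional switch without any scaling between libraries. It was 3.31 in cerebellum (3.05 to 3.59), against 0.307 in cortex (0.237 to 0.393), 0.254 in hippocampus (0.205 to 0.311) and 0.214 in neuron (0.154 to 0.293). The cerebellar interval lay apart from the other 3, which overlapped one another.

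Myt1 (chr2:181763332-181827797, plus strand), a zinc finger factor of progenitors and early neurons, was also led by cerebellum. Its levels were 56.0 TPM in cerebellum, 12.6 in cortex, 12.9 in hippocampus and 1.43 in neuron (16 counts). Glia and ICR MEF had 0 counts, OG2 MEF 1 and the library labelled R1 ESC 2. Cortex and hippocampus were not separated, and neuron lay 8.83-fold below cortex (5.20 to 16.0).

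Myt1l (chr12:29528384-29923213, plus strand), its pan-neuronal relative, took the opposite regional order. It stood at 111 TPM in cortex, 104 in hippocampus, 54.2 in cerebellum and 16.8 in neuron (360 counts), with 3 counts in glia, 1 each in ICR MEF and the library labelled R1 ESC and 0 in OG2 MEF. Cortex and hippocampus were not separated, and cerebellum was 1.92-fold below hippocampus (1.76 to 2.10). On TPM, Myt1 and Myt1l were level in cerebellum, at a ratio of 1.03 (0.929 to 1.15), whereas Myt1 was at 0.114 of Myt1l in cortex, 0.124 in hippocampus and 0.0854 in neuron. In CPM, without transcript length, they stood at 99.6 and 162 in cerebellum. Myt1l overlaps an exon of Gm20208 on the other strand.

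Pou3f2 (chr4:22482780-22488366, minus strand) and Pou3f3 (chr1:42695768-42703176, plus strand), the class III POU factors also called Brn2 and Brn1, broke with the other activators because glia held their highest TPM. Pou3f2 stood at 11.8 TPM in glia (180 counts), 11.4 in cortex, 7.68 in hippocampus, 5 in cerebellum and 1.73 in neuron (29 counts), with 0 counts in both MEFs and in the library labelled R1 ESC. Glia and cortex were not separated for Pou3f2, and with TMM factors of the counts cortex was the higher by a trace (ratio of glia to cortex 0.9994). Pou3f3 stood at 63.6 TPM in glia (1303 counts), 42.4 in hippocampus, 32.2 in cortex, 17.4 in cerebellum and 6.03 in neuron, with 0.85 and 0.81 in ICR MEF and OG2 MEF (17 and 19 counts) and 0.06 in the library labelled R1 ESC. Glia exceeded hippocampus for Pou3f3 with a ratio interval of 1.35 to 1.67, and this order held under all 4 other scalings. The ratio of Pou3f3 to Pou3f2 lay between 2.83 (cortex) and 5.52 (hippocampus) in all 5 brain libraries.

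**Figure D1:**
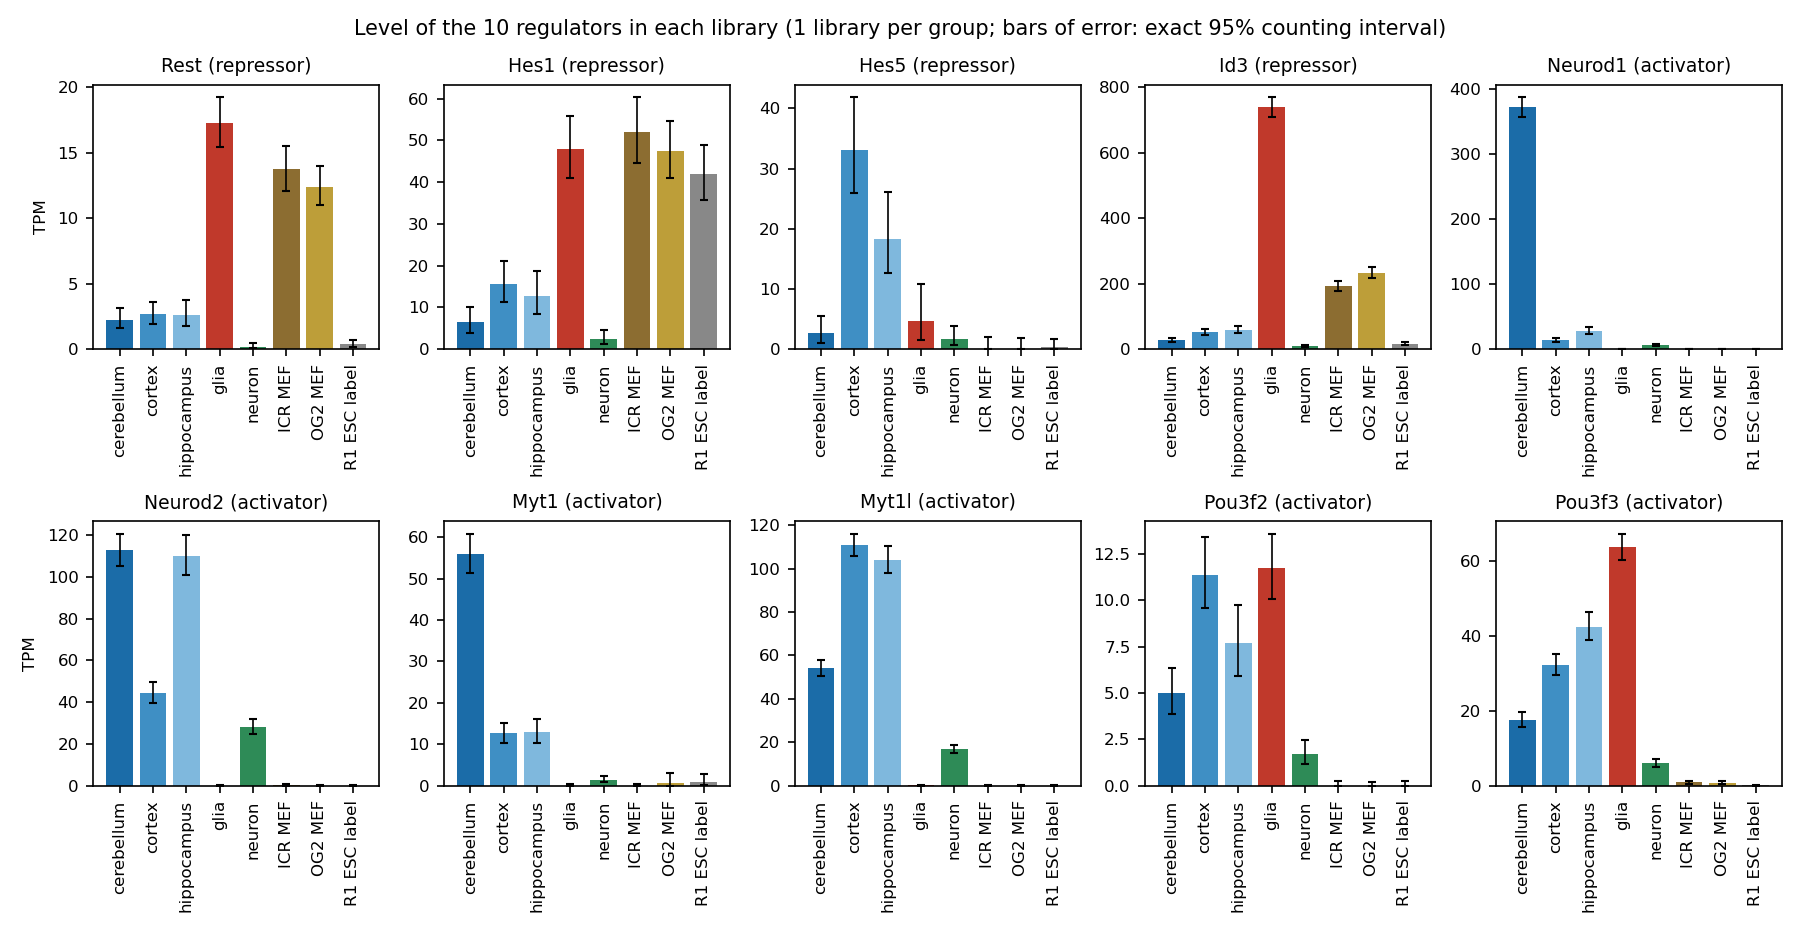
TPM of each of the 10 members (1 panel each, linear axis from 0, scales differ) in the 8 libraries, with exact 95% counting intervals as error bars. Rest, Hes1 and Id3 are high in glia and both MEFs, Neurod1 and Myt1 are led by cerebellum at 372 and 56.0 TPM, and both POU factors are highest in glia.

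**Figure D2:**
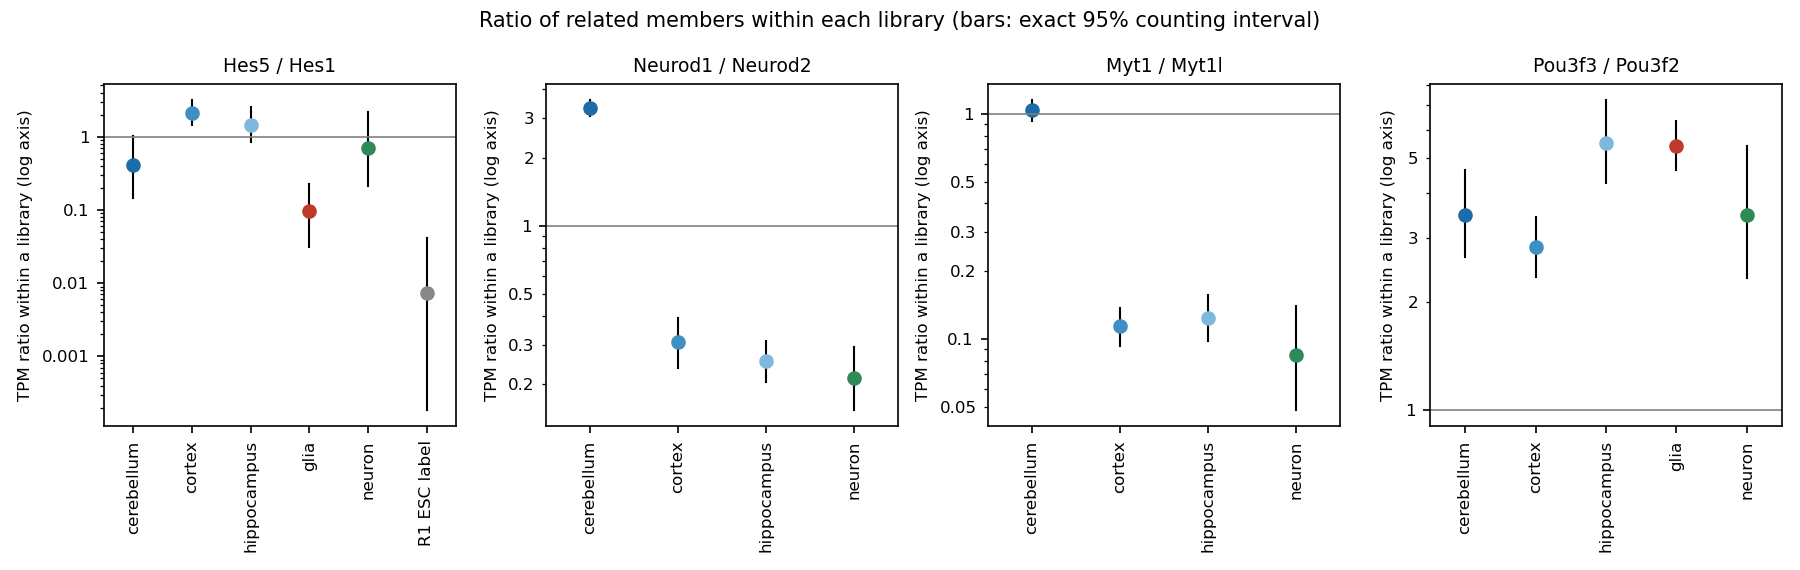
Ratio of the TPM of 2 related members within a library, on log axes, with exact 95% counting intervals; libraries where a gene of the pair had 0 counts, or where both had 3 or fewer, are not drawn. Cerebellum stands apart for Neurod1 over Neurod2 (3.31) and Myt1 over Myt1l (1.03), while Pou3f3 exceeds Pou3f2 in all 5 libraries drawn.

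The neuron and glia libraries divided the members by more than their role. Neurod2 and Myt1l, 2 of the 7 members that reached 10 TPM in either library, were called higher in neuron, against a background of 10.4% of the 11185 genes tested. Rest, Hes1, Id3, Pou3f2 and Pou3f3, 5 members, were called lower in neuron, against a background of 30.5%. The median difference of all genes tested was -0.95 on the log2(TPM + 1) scale, neuron minus glia. With TMM factors of the TPM the background split was 16.4% higher and 18.3% lower, with 2 members higher and 4 lower, Pou3f2 being the call that was lost.

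Neurod2 was at least 78.7-fold higher in neuron and Myt1l 112-fold higher (37.2 to 534). Neurod1 was at least 14.5-fold higher but at 6.05 TPM stayed under the level needed for a call, and Myt1, at 1.43 TPM against 0 counts, was at least 3.77-fold higher. The POU factors went with the repressors: Pou3f2 was 6.80-fold lower in neuron (4.58 to 10.4) and Pou3f3 10.6-fold lower (8.84 to 12.7), with smallest ratios of 3.81 and 5.92 under the other scalings. Hes5 differed by 2.64-fold with an interval of 0.637 to 10.4, so no difference was detectable at this depth. Summed TPM of the 5 genes of dividing cells were 861 in glia and 14.3 in neuron, and those of the 7 astrocyte markers 2651 and 62.4. None of either list was at 0 in either library. The 7 fibroblast markers summed to 1732 TPM in glia and 719 in neuron, with medians of 59.2 and 1.11. At 10 TPM or more were 5 of them in glia and 2 in neuron, so the neuron sum rests on few genes. Of the 7, Lum was at 0 in neuron. Fn1, Col1a2, Col1a1 and Col3a1 were called lower in neuron, while Dcn, Lum and Thy1 were not called. The part of these 3 lists in the differences was not tested.

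Against the MEFs, the brain regions had Neurod1, Neurod2, Myt1, Myt1l and Pou3f3 called higher, 5 of 10 members, with a background of 14.5% of 12604 genes. None was called lower on TPM, with a background of 5.68%, and the median difference of all genes tested was 0.75. With TMM factors of the TPM the background split was 9.61% higher and 8.45% lower, and Neurod2, Myt1l and Pou3f3 were called higher and Rest, Hes1 and Id3 lower. Pou3f3 was 20.5-fold higher (12.6 to 35.7), and 12.9-fold at the smallest for the same pair of libraries under the other scalings. The ratios of the other 4 each rest on 1 count in a MEF. Over ICR MEF, Myt1l had a ratio of 1084 (186 to 41100), Neurod2 of 371 (65.3 to 14525) and Neurod1 of 97.5 (16.9 to 3870), and over OG2 MEF Myt1 had one of 23.4 (4.14 to 938). Myt1l and Neurod2 had 0 counts in OG2 MEF, and set at 3 counts there they were at least 409.9-fold and 143-fold higher. Pou3f2, at 5 to 11.4 TPM against 0 counts, was at least 25.0-fold higher without reaching a call.

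The repressors were lower in the regions than in the MEFs with no overlap, except Hes5. Rest was 4.68-fold lower (3.36 to 6.66), Id3 3.24-fold (2.62 to 4.05) and Hes1 3.03-fold (2.17 to 4.31). Rest missed the 4-fold rule through the added 1 TPM, and it was called lower without OG2 MEF and in 4 of 4 other scalings. Hes5 had 0 counts in both MEFs and was at least 1.57-fold higher in the regions, with cerebellum, at 7 counts, the lowest of them. Fibroblast markers summed to 8870 and 10122 TPM in the MEFs and 473 to 878 in the regions, with medians of 920 and 1206 against 4.63 to 12.8. Of these 7 markers, Dcn and Thy1 were not called lower in the regions. Genes of dividing cells summed to 492 and 503 TPM against 3.13 to 12.3, with Ccnb1 and Birc5 at 0 in cerebellum. The part of either list in these differences was not tested.

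**Figure D3:**
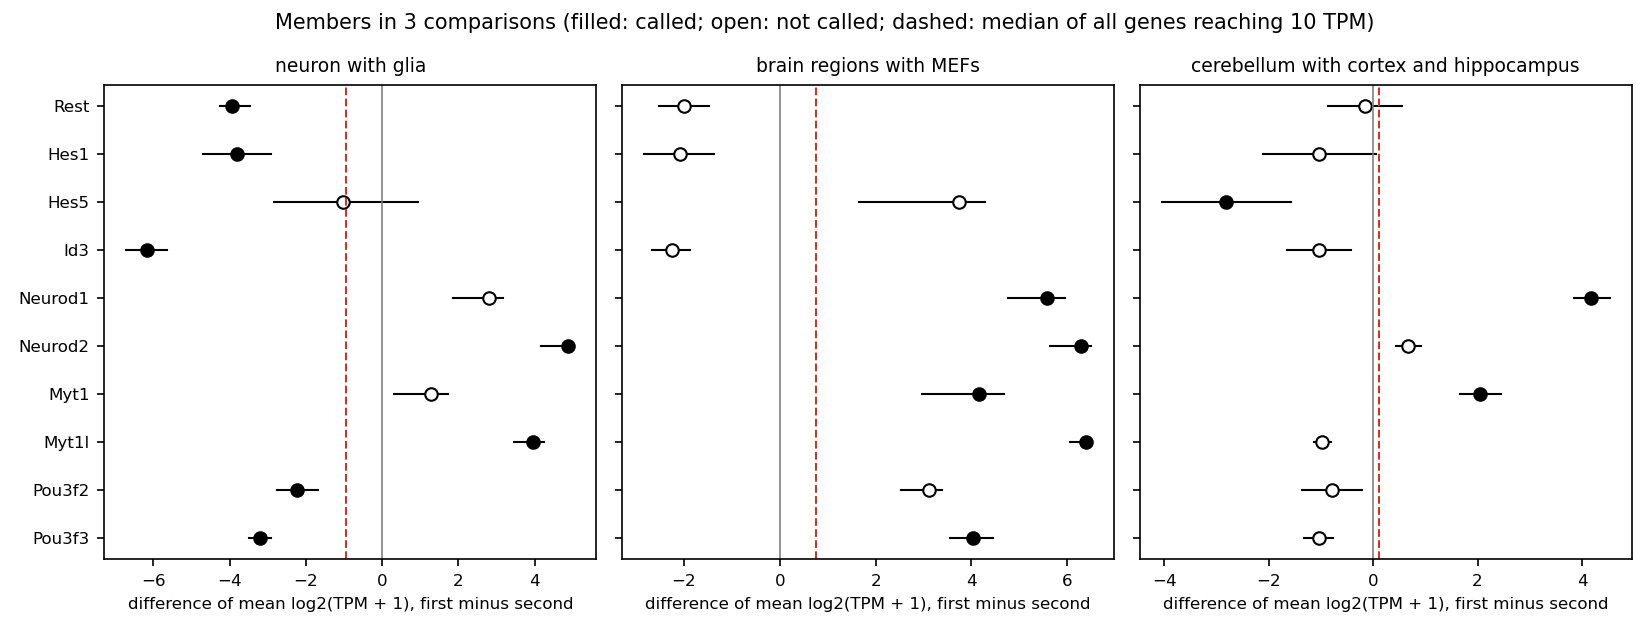
Difference of mean log2(TPM + 1), first group minus second, for the 10 members in 3 comparisons, with bars for the 95% counting error, filled circles for called genes and a dashed line at the median of all genes tested. In neuron with glia Pou3f2 and Pou3f3 lie left of 0 with Rest, Hes1 and Id3, while in brain regions with MEFs all 6 activators lie right of 0.

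Cerebellum had 3 members called against cortex and hippocampus. Neurod1 was 13.3-fold higher (11.04 to 16.3) and Myt1 4.34-fold higher (3.42 to 5.56), 2 members against a background of 2.25% of 11728 genes. Hes5 was 6.95-fold lower (3.03 to 18.7), 1 member against 3.01%. Counting error also set cerebellum below both regions for Myt1l, Id3, Pou3f3, Pou3f2 and Hes1, by 1.54-fold to 1.99-fold at the closest region, without a call. The call of Myt1 was lost with either set of TMM factors and in thinned counts, and that of Hes5 in CPM. Markers of cerebellar granule neurons, such as Gabra6 at 796 TPM in cerebellum, summed to 2930 TPM there and to 19.4 and 32.3 in cortex and hippocampus, with none of the 5 at 0 in any region; their part in these differences was not tested.

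Cortex and hippocampus had no member called in either direction, against 0.832% higher and 0.452% lower over all genes. Neurod2 and Neurod1 had the widest ratios in favour of hippocampus, 2.47 (2.14 to 2.86) and 2.05 (1.52 to 2.76), and Hes5 the widest in favour of cortex, 1.80 (1.17 to 2.82).

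Between the library labelled R1 ESC and the MEFs, which share the 2 MEF libraries with the comparison of the regions, Rest and Id3 were called lower, 2 of the 3 members at 10 TPM or more, where 44.6% of 9114 genes were. Rest was 34.4-fold lower (16.6 to 87.0) and Id3 11.3-fold lower (8.43 to 15.5), with smallest ratios of 10.2 and 3.13 under the other scalings. None was called higher, against 4.49%. The median difference of all genes was -2.04, and with TMM factors of the TPM the background split was 14.3% higher and 18.9% lower and Id3 was no longer called. Hes1 lay 0.24 under the MEFs on the log2(TPM + 1) scale, and above them by 0.39 to 1.54 under the 4 other scalings, without a call on any. ICR MEF and OG2 MEF had no member called in either direction, against 0.437% and 0.149%, and of the members only Id3 was separated by counting error, at 1.21-fold higher in OG2 MEF (1.09 to 1.35).

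The 24 listed neuronal genes known as REST targets were low where Rest was high, but also in the library labelled R1 ESC, where Rest was low too. Their median TPM was 139 in neuron and 222, 280 and 241 in cerebellum, cortex and hippocampus. Glia had a median of 3.47, ICR MEF 0.775, OG2 MEF 0.47 and the library labelled R1 ESC 0.405. In neuron 17 of 24 were called higher than in glia and 0 lower (17 to 20 over the scalings), beside 10.4% and 30.5% of all genes, with a median log2 difference of 3.67 beside -0.95 for all genes. In the regions 21 of 24 were called higher than in the MEFs and 0 lower (20 to 21 over the scalings), beside 14.5% and 5.68% of all genes, with a median of 6.34 beside 0.75. The 7 neuron markers, of which Snap25, Syp and Tubb3 are also in this list, had 6 and 7 called higher in the same comparisons. Their medians were 6.36 and 7.81. Since the list was chosen from neuronal genes, its split cannot tell REST targets from other neuronal genes.

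Among these targets, Cplx1, which clamps vesicle release, had 333 TPM in neuron and 0 counts in glia, both MEFs and the library labelled R1 ESC. Snap25, part of the fusion complex of synaptic vesicles, had 446 TPM in neuron and 0.73 in glia, and 2634 to 3295 in the regions against 0.56 or less in the MEFs. Stmn3, a tubulin-binding protein of neurons, had 3137 TPM in neuron and 7.87 in glia. The list was not silent in every library with high Rest. Stmn2, a tubulin-binding growth cone protein, stood at 288 TPM in glia, 51.0 and 51.1 in the MEFs and 118 in the library labelled R1 ESC, against 2852 in neuron. Scg3, a secretory granule protein, had 113 TPM in glia and 110 in neuron. These values for Stmn2 and Scg3 were singled out after they were seen.

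**Figure D4:**
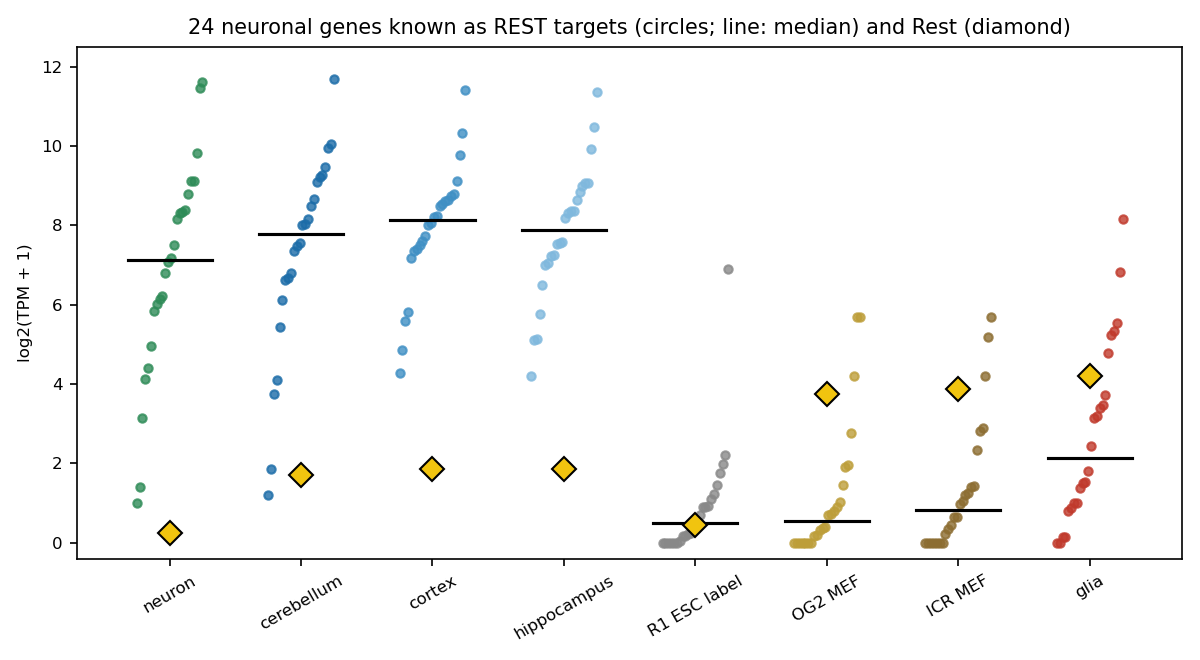
Levels on the log2(TPM + 1) axis of the 24 listed REST targets (circles, with a line at their median) and of Rest (diamond) in each library. Rest is lowest in neuron (0.19 TPM) and highest in glia (17.3 TPM), and the library labelled R1 ESC has both a low Rest (0.36 TPM) and a low target median (0.405 TPM).

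RNA of the proteins that act with REST differed less than the targets between neuron and glia and between the regions and the MEFs. Of 18 corepressor partners, 7 were called lower in neuron than in glia and 1 higher, a share of 38.9% lower beside the 30.5% of all genes, and 3 to 7 were lower over the scalings. Their median log2 difference was -1.65 beside -0.95 for all genes. Rcor1, the CoREST scaffold, had 2.75 TPM in neuron against 26.0 in glia, and Ctdsp1, a small phosphatase that REST recruits, 1.67 against 85.4, while Rcor2 had 15.2 against 1.62. None of the 18 was called in the regions against the MEFs, where 14.5% of all genes were called higher and 5.68% lower. Hdac1, a histone deacetylase, had 892 TPM in the library labelled R1 ESC and 132 and 162 in the MEFs. Srrm3 and Srrm4, splicing factors of neurons of which Srrm4 is known to splice Rest into a truncated form, stood at 25.5 and 8.77 TPM in neuron against 0 and 1.44 in glia, and only Srrm3 was called on TPM. Both were called higher in the regions than in the MEFs, with Srrm4 at 17.6 to 31.8 TPM against 0.56 and 1.78. They belong to a list of 6 REST turnover and splicing regulators. The others, Btrc, Usp7, Usp15 and Csnk1a1, were called in neither of these comparisons on TPM. Of all genes, 10.4% were called higher in neuron than in glia and 14.5% in the regions than in the MEFs.

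Genes of the Notch pathway around Hes1 and Hes5 were low in the neuron library and in the library labelled R1 ESC. Their summed TPM were 17.8 and 17.9, and none reached 10 TPM in either. Hes1 itself stood at 41.9 TPM in the library labelled R1 ESC. Of 14 ligands, receptors and nuclear partners, 8 were called lower in neuron than in glia and 0 higher (7 to 8 over the scalings), with a median of -2.91 beside -0.95. The share of all genes called lower was 30.5%, and 18.3% with TMM factors of the TPM. In the library labelled R1 ESC, 3 of the 14 were called lower than in the MEFs and 0 higher, beside 44.6% of all genes lower. The median difference of the 14 was -0.95 there, and -3.06 for the 6 that reached 10 TPM, beside -2.04 for all genes. Notch2 and Notch1 stood at 0.25 and 1.36 TPM in neuron and at 68.6 and 69.0 in glia, the ligand Jag1 at 0.30 and 21.8, and Rbpj at 3.34 and 63.6. No gene of the list was called between the regions and the MEFs on TPM, where 14.5% of all genes were called higher and 5.68% lower. Nrarp, a Notch target that dampens the pathway, was low in the same region as Hes5: its TPM were 3.28, 27.9 and 25.2 for cerebellum, cortex and hippocampus. It was the only 1 of the 14 called in cerebellum against the other regions, beside 3.01% of all genes called lower. Rbpj leaned the other way without a call, at 23.0, 18.7 and 18.3 TPM in the same order. Of 7 other Hes and Hey repressors, only 2, Hey1 and Hes6, reached 10 TPM in neuron or glia and could be called. Hey1 alone was called on TPM, lower in neuron at 13.7 TPM against 82.8, beside 30.5% of all genes lower. That call ended with TMM factors of the TPM and in CPM. Hes6 went the other way without a call, at 70.7 TPM in neuron and 41.2 in glia. The median difference of Hey1 and Hes6 was -0.87, beside -0.95 for all genes that reached 10 TPM. Over all 7 it was 0, with Hes2 and Hes3 at 0 in both libraries. Hes3 had 48.2 TPM (192 counts) in cerebellum and 0 counts in the 7 other libraries.

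The other Id genes and the E protein genes followed Id3 in part. Of 6 other Id and E proteins, 4 were called lower in neuron than in glia and 0 higher, in every scaling, beside 30.5% of all genes lower on TPM, and their median difference was -3.70 beside -0.95. Id1 had 2.52 TPM in neuron against 434 in glia, and Id4 1.51 against 182. The E protein genes Tcf12 and Tcf3 stood at 2.97 and 9.42 TPM in neuron and 94.5 and 71.9 in glia. Id2 and Tcf4 kept 112 and 75.4 TPM in neuron, against 426 and 220 in glia, and were not called.

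Among other neuronal bHLH genes, Neurod6 and Bhlhe22, of forebrain excitatory neurons, were called higher in neuron than in glia, at 58.8 and 46.0 TPM against 0 and 1.23. Neurod6 separated the forebrain regions more widely than Neurod1 or Neurod2, at 224 TPM in hippocampus and 36.5 in cortex. Of the other Myt and POU factors, St18, the third Myt gene, had a cerebellar level of 87.0 TPM with 8.44 in cortex and 44.9 in hippocampus, and Pou3f1 had 0.68, 10.1 and 40.3 in the same order. Of 7 Sox and Pax factors of progenitors and immature neurons, Pax6, Sox2, Sox9 and Sox1, 4 in all, were called lower in neuron than in glia in every scaling, beside 30.5% of all genes on TPM, with Sox2 at 5.22 TPM in neuron and 225 in glia. Pax6, a factor of cerebellar granule cells, was called higher in cerebellum, at 116 TPM against 11.3 in cortex and 10.2 in hippocampus.

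Across the 8 libraries, the members paired by profile. Pearson's r of log2(TPM + 1) was 0.99 for Pou3f2 with Pou3f3, 0.98 for Neurod2 with Myt1l, 0.97 for Rest with Id3 and 0.96 for Neurod1 with Myt1. It was -0.35 for Hes1 with Hes5, and 0.89 for Hes5 with Pou3f2. Rest had -0.51 with Neurod2 and 0.02 with Pou3f2. These describe 8 points that share the split of brain from other libraries, the scaling of each library and, for several members, values at or near 0.

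Of 12258 genes searched, the profile most like that of Rest was that of Gulp1 (r = 0.9997), an adaptor protein of engulfment, with 42.1 TPM in glia and 0.37 in neuron, followed by Lamc1 and Ogn. Trim25 was nearest to Hes1 (r = 0.98), Tekt5 to Hes5 (0.998) and Tcea3 to Id3 (0.99). Pvalb, the calcium buffer parvalbumin, was nearest to Neurod1 (0.99), with 1332 TPM in cerebellum and 76.6 in cortex. Amer3 was nearest to Neurod2 (0.997), Ryr1, a calcium release channel, to Myt1 (0.99) and Sv2b, a synaptic vesicle protein, to Myt1l (0.9996). Igsf11 was nearest to Pou3f2 (0.99) and Ptprj, a receptor phosphatase, to Pou3f3 (0.9993), and Fam84a was second for both POU genes.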

How the data were processed

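RNA was measured in 8 mouse libraries, 1 per group. The authors deposited expected counts per gene, TPM and lengths for each library, per the file headers. The submitters' processing notes name Bowtie, RSEM and the build mm10. Their versions, the annotation release and the strandedness were not given in the sources used here. Total RNA was prepared with Trizol and 1 ug went into an Illumina TruSeq kit, per the labels. Counts and effective lengths gave back 99.9% of the TPM of at least 10 to within 1%.

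TPM were compared as deposited, with 1 added on the log2 scale. Intervals are exact Poisson (levels) and Clopper-Pearson (ratios), from expected counts rounded to whole numbers. The calling rule (10 TPM, 4-fold) was applied to all genes with 10 TPM or more in the libraries compared, in 6 comparisons, and was tested on simulated data. Differences of lists are medians over all their measured genes, except where only those that reached 10 TPM are named, beside the median over all genes tested. Work was done in Python 3.11.15 (numpy 2.4.6, pandas 2.3.3, scipy 1.17.1, matplotlib 3.10.9) and R 4.3.3 with edgeR 4.0.16, used for TMM factors only.

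The members, pathway lists and markers were chosen with earlier results of these data known. Named genes are the members, the 3 genes most alike to each by Pearson's r (predicted models, ribosomal protein and small RNA genes left out; not all are printed), and of each list up to 4 called genes with the largest ratio or, with none called, the 2 with the highest TPM, with others singled out as examples after their values were seen. Alternatives were 0.1 or 5 TPM added, a floor of 1 TPM, 2-fold, 2 TMM scalings, CPM, TPM without 93 ribosomal protein and haemoglobin genes, thinning to the smallest library total (seed 11), and leaving out each library of a side. Where the text speaks of 4 other scalings, these are both TMM scalings, CPM and TPM without those 93 genes. Coordinates are from GENCODE release M21 (GRCm38) by gene identifier, and promoters from RefSeq. Protein sequences were not used here. A gene of a pathway list is not reported here.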

Additional observations from a re-analysis of the deposited data

How the results depend on the processing

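The counts of members called in neuron with glia, 2 higher and 5 lower, stayed within 1.5 times under every alternative run. In brain regions with MEFs the members called higher, 5 on TPM, were 2 with 5 TPM added and 3 with TMM factors of the TPM. The members called lower there, 0 on TPM, were 1 with 0.1 TPM added, with TMM factors of the counts and without ribosomal protein and haemoglobin genes, 2 in CPM, 3 at 2-fold and 3 with TMM factors of the TPM, and 0 to 1 when each library was left out in turn. For cerebellum the members called higher, 2 on TPM, were 1 with 5 TPM added, with either set of TMM factors and in thinned counts, and the 1 called lower became 0 with 5 TPM added and in CPM. Cortex with hippocampus had 1 member lower at 2-fold, Neurod2. Between the R1 ESC label and the MEFs, the 2 called lower became 1 with 5 TPM added (Id3) and 1 with TMM factors of the TPM (Rest). No called member changed direction. The highest library was the same for 7 of 10 members with each set of TMM factors and for 9 of 10 in CPM. No paired analysis was possible because each group held 1 library. Levels under 3 counts, 0.127 to 0.261 TPM for Pou3f3 and 0.875 to 2.77 for Hes5, limit what can be said of low members.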
